A study of Homo sapiens with 2 samples.

Results

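Of the 8589 ING5 peaks on chromosomes 1 to 22 and X, 341 lay at the start of a long noncoding RNA (lncRNA) gene and away from protein-coding starts (3.97%, exact binomial 95% interval 3.57 to 4.40). A peak was taken when its summit lay within 1000 bp of a transcription start site (TSS) of a GENCODE lncRNA gene and more than 1000 bp from every TSS of a protein-coding gene. The whole list held 8608 peaks, of which 6527 lay within 1000 bp of a protein-coding TSS and 1721 at neither kind of start. The series profiled binding of ING5 in untreated HepG2 cells, a human liver cancer line, by chromatin immunoprecipitation and sequencing (ChIP-seq), to find the genes it targets. It holds 1 library made with an ING5 antibody and 1 input DNA library made without one. The input served as the control for calling the peaks. The peak caller's header names the ChIP library differently from the sample labels, and a peak list cannot show whether the chromatin came from HepG2. Positions are GRCh38, to which the list's sequence names belong, although the labels name GRCh37.

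ING5 works within complexes that acetylate histones, and its plant homeodomain finger binds a methylated histone tail. The methyl mark that such fingers read is a known feature of active promoters, whether the transcript codes for protein or not. LncRNAs are transcribed by RNA polymerase II and often spliced, but are not translated into known proteins. Many run antisense to a coding gene, some start back to back with one (divergent), and others lie between genes (intergenic). Their known roles include scaffolding nuclear bodies, hosting small RNAs within their introns, and controlling neighbouring genes.

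With 1 ChIP library there was no replicate, so no difference was tested. Intervals cover counting error only, and peaks and genes are not replicates. The ChIP library held 12416160 fragments and the input 9915170. Each peak's pileup (fragments over the summit) and fold enrichment (pileup over local background) are the authors' values.

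RefSeq promoter sequences of 6 of these genes are shown because an ING5 peak overlapped each of them. They are examples, richer in CpG than most starts in the set, and the RefSeq start is not always the annotated start nearest to the summit. They run from 250 bases before to 50 bases after a RefSeq start (GRCh38.p14), 5′ to 3′ on the gene's own strand. Capitals mark matches, on either strand, to 7 short promoter motifs: TATAAA, the CCAAT box, the GC box GGGCGG, the ETS core CCGGAA, the NRF1 motif GCATGCG, the cyclic AMP response core TGACGT and the E-box CACGTG. The first 3 sequences belong to the 15 most significant peaks at lncRNA starts. The others belong to lists of known lncRNAs, and were picked after their values were seen.
LINC00899, chr22:46044819-46045118, minus strand: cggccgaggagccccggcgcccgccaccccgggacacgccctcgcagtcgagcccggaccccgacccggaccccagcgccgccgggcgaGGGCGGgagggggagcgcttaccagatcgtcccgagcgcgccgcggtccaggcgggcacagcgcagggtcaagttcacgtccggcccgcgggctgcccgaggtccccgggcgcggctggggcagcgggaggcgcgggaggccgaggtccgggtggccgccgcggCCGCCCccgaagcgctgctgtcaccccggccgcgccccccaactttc
ANXA2R-AS1, chr5:43041884-43042183, plus strand: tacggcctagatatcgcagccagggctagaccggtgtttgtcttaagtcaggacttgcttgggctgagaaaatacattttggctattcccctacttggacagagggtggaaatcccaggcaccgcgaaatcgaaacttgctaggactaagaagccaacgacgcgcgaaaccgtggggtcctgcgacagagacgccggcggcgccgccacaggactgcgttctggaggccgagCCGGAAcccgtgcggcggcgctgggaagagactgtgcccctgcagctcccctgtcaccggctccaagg
LINC00472, chr6:71420696-71420995, minus strand: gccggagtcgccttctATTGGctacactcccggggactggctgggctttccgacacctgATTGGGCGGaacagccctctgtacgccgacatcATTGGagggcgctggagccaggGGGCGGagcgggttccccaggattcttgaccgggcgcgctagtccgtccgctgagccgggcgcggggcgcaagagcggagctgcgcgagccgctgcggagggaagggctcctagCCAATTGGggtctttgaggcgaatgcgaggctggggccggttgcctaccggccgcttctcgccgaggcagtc
MIR31HG, chr9:21559749-21560048, minus strand: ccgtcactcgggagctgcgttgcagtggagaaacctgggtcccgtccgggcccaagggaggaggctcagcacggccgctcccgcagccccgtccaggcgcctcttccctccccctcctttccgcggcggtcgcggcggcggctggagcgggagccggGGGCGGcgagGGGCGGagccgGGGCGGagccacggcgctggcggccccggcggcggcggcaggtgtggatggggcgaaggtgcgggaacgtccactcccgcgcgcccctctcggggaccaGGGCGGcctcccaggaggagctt
SNHG12, chr1:28581824-28582123, minus strand: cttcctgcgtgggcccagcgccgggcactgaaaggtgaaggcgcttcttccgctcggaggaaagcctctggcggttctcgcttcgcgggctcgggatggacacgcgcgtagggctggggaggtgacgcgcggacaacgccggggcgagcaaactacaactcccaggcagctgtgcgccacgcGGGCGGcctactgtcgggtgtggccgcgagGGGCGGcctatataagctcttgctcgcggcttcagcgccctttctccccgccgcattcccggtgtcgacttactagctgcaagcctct
HOTTIP, chr7:27200171-27200470, plus strand: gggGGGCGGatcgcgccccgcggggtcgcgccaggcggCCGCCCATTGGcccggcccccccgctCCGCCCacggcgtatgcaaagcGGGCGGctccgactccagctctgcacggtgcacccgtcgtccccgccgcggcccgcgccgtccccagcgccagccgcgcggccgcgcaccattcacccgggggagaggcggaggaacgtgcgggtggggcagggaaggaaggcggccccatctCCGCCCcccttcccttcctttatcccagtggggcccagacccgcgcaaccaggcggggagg

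All 6 windows were rich in G and C, from 60.7% at ANXA2R-AS1 to 81.0% at LINC00899. The ING5 peak covered all 300 bases at LINC00899, ANXA2R-AS1 and SNHG12, 98 at LINC00472, 93 at HOTTIP (the weaker of its 2 peaks) and 22 at MIR31HG. CpG observed over expected ran from 0.868 at MIR31HG to 1.03 at SNHG12 in these windows. At the GENCODE start nearest to the summit it was 0.102 for HOTTIP, with 53.3% G and C, and 0.627 for the stronger peak of SNHG12, with 52.7%. The GC box matched 5 times at HOTTIP, 4 times at MIR31HG and 2 times each at LINC00899, LINC00472 and SNHG12. Over all RefSeq promoter windows of this length, GGGCGG was found in 25.6% of lncRNA and 56.3% of protein-coding windows. LINC00472 had 5 matches to CCAAT, a motif found in 34.4% of lncRNA windows, and ANXA2R-AS1 had 1 match to CCGGAA, found in 10.5%. In the 91 RefSeq windows available at peaks of the set, GGGCGG was found in 51 (56.0%), CCAAT in 21 (23.1%), CCGGAA in 21 (23.1%) and TATAAA in 7 (7.69%). These windows cover 29.0% of the peaks, too few to compare the set with all lncRNA windows. None of the 6 windows matched TATAAA, which was found in 15.1% of lncRNA windows.

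The strongest peak at an lncRNA start lay in MIRLET7BHG on chromosome 22, whose transcript hosts microRNAs of the let-7 family, from 46072088 to 46075598. It had 131 fragments at its summit, a 57.0-fold enrichment and a length of 3511 bp, and its summit lay 165 bp downstream of an annotated start. The second stood at the unnamed gene ENSG00000256658 on chromosome 12, from 12723398 to 12725187, divergent from APOLD1, a gene of endothelial signalling. It had 112 fragments and a 46.2-fold enrichment, with the summit 143 bp downstream. These 2 peaks stood apart from the rest of the set, in which the next highest pileup was 70 and 20 peaks in all had more than 30 fragments.

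Next by significance came a pair of peaks in the HOXA cluster, whose coding genes pattern the body axis. ENSG00000253508, near HOXA13, had 56 fragments and 29.7-fold enrichment with the summit 249 bp downstream of its start. HOXA11-AS, antisense to HOXA11, had 50 fragments and 27.5-fold enrichment, with the summit 970 bp upstream of its start, near the edge of the window. Of the other 11 of the 15 most significant peaks, 6 belonged to antisense lncRNAs. ANXA2R-OT1, antisense to the zinc finger gene ZNF131, had 57 fragments and 22.2-fold enrichment. IER5L-AS1 and ENSG00000267598, antisense to the immediate-early family genes IER5L and IER2, reached 23.2-fold and 22.7-fold. ANXA2R-AS1 reached 14.8-fold with 51 fragments. LINC-PINT, a transcript induced by p53 and antisense to MKLN1, reached 17.8-fold and LINC00472, antisense to OGFRL1, 16.5-fold, with 32 fragments each. The remaining 5 were intergenic. They were a second peak of MIRLET7BHG with 26.4-fold, LINC00899 with 18.9-fold, ENSG00000228478 near TFAP2A with 17.8-fold, ENSG00000289044 with 17.4-fold and ENSG00000231010 with 16.5-fold.

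Most peaks of the set were far weaker. The median pileup was 12 fragments (95% interval of the median 11 to 12), with quartiles of 10 and 15 and a range of 7 to 131. The median fold enrichment was 6.47 (5.94 to 6.47), with a range of 3.82 to 57.0. The median length was 329 bp (307 to 374), and the longest peak, of 4984 bp, was the second one of MIRLET7BHG. Tall peaks were also long: every peak with over 40 fragments was longer than 1 kb, except those of IER5L-AS1 (769 bp) and CASC19 (607 bp).

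**Figure D1:**
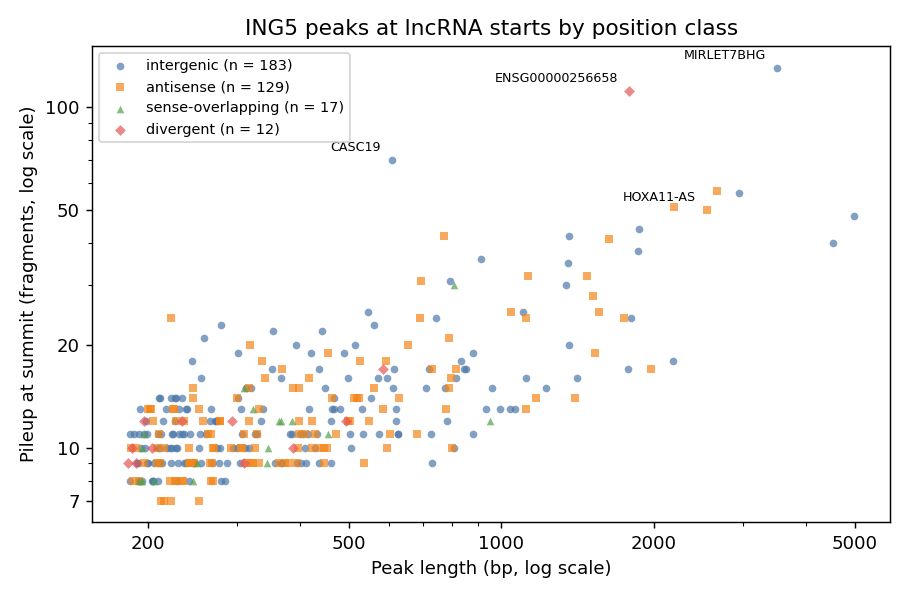
Pileup at the summit (fragments, log scale) against peak length (bp, log scale) for each of the 341 ING5 peaks at lncRNA starts, with 1 point per peak and the marker giving the position class. MIRLET7BHG, with 131 fragments, and ENSG00000256658, with 112, lie above all others, while most points lie near the median of 12 fragments and 329 bp.

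In strength and length the set lay closer to peaks at protein-coding starts than to the remaining peaks. Protein-coding promoter peaks had a median of 12 fragments, 6.66-fold enrichment and 365 bp, and peaks at neither kind of start a median of 10 fragments, 5.40-fold and 254 bp. A fold of 10 or more was reached by 39 of the 341 peaks (11.4%, 8.26 to 15.3), by 11.4% of protein-coding promoter peaks (10.6 to 12.1) and by 3.89% of peaks at neither (3.03 to 4.92). A length of 1 kb or more was reached by 10.6% of the set (7.50 to 14.3), 6.04% of protein-coding promoter peaks (5.47 to 6.64) and 4.13% of the others (3.24 to 5.18). Local background was above its lowest value of 0.853 fragments at 38.7% of the set (33.5 to 44.1). It was so at 38.6% of protein-coding promoter peaks (37.5 to 39.8) and 42.9% of the others (40.5 to 45.3). These differences were not tested.

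ING5 summits lay more often downstream than upstream of the lncRNA start. Of the 341 summits, 215 lay downstream (63.1%, 57.7 to 68.2) and 126 upstream. The fullest 100 bp bin was the first one downstream, with 40 summits, followed by the next with 35, and a further 31 lay between 400 and 500 bp. The median distance from the nearest annotated start was 334 bp (281 to 401), and 113 summits (33.1%) lay within 200 bp. At protein-coding starts, measured in the same way, 74.7% of summits lay downstream (73.6 to 75.8), 41.5% lay within 200 bp and the median distance was 251 bp. Over 500 bp upstream lay 42 of the 341 summits (12.3%). Genes with many annotated starts bring the nearest start closer. Only 175 of the 341 nearest starts (51.3%) were those of the gene's canonical transcript, and at these 60.6% of summits lay downstream (52.9 to 67.9). With the window widened to 3000 bp, 50.6% of 591 summits lay downstream.

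**Figure D2:**
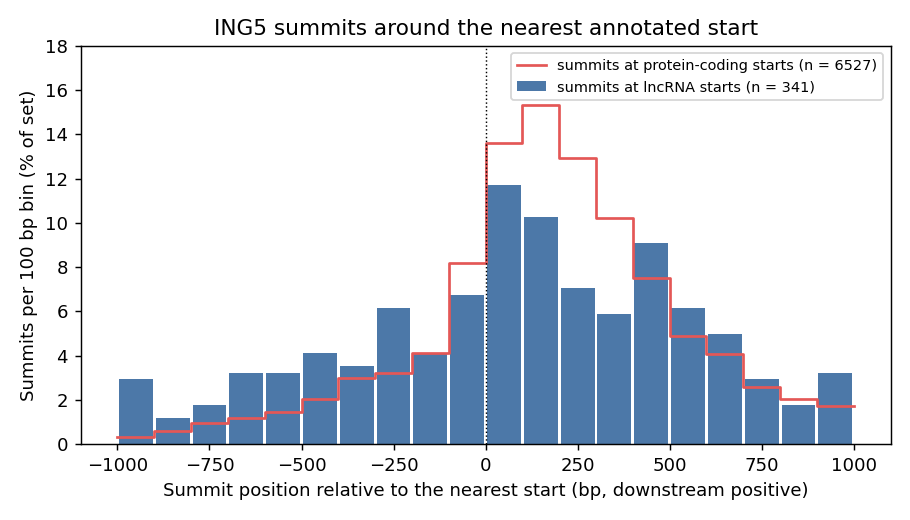
Position of ING5 summits relative to the nearest annotated start (bp, downstream positive), as the share of summits per 100 bp bin, for 341 peaks at lncRNA starts (bars) and 6527 at protein-coding starts (line). Both are highest within 200 bp downstream of the start, and the bars are flatter, with 11.7% in the first downstream bin against 13.6% on the line.

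By position, 183 of the 341 peaks belonged to intergenic lncRNAs (53.7%, 48.2 to 59.1), 129 to antisense ones (37.8%, 32.7 to 43.2), 17 to ones overlapping a coding gene on the same strand (4.99%) and 12 to divergent ones (3.52%). Among all 18592 lncRNA genes the shares were 46.8% intergenic, 37.3% antisense, 8.71% sense-overlapping and 7.18% divergent. The first shares count peaks and these count genes. With 1 peak kept per gene, 51.7% were intergenic, 38.5% antisense, 5.74% sense-overlapping and 4.05% divergent. These differences were not tested. Peaks within 1000 bp of a protein-coding start, where many divergent lncRNAs begin, are outside the set by its rule. With canonical transcripts alone, for lncRNA and coding genes both, antisense lncRNAs held 53.95% of 430 peaks and intergenic ones 34.0%. The order of the 2 classes thus turned when fewer coding starts excluded a peak and fewer lncRNA starts were read. With only the lncRNA transcripts cut, to those tagged as basic in GENCODE, the shares were 37.2% antisense and 53.2% intergenic. Medians of pileup ran from 11 to 12 fragments over the 4 classes, and those of fold from 5.94 in sense-overlapping to 6.47 in intergenic and divergent ones.

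Classes differed in which side of the start the summit lay. Downstream summits made up 127 of 183 at intergenic lncRNAs (69.4%, 62.2 to 76.0) but 64 of 129 at antisense ones (49.6%, 40.7 to 58.5). In the divergent class 11 of 12 lay downstream, and the exception was JARID2-DT, with its summit 35 bp upstream of the start and 12 fragments. A divergent lncRNA has a coding start upstream by definition, and summits within 1000 bp of that start are outside the set. The side of the start in this class is therefore partly set by the rule. In the sense-overlapping class 13 of 17 lay downstream. Antisense summits can also be read against the nearest protein-coding TSS, which need not be that of the gene they overlap: 88 of 129 lay downstream of it (68.2%, 59.4 to 76.1). This held for 50 of the 65 antisense summits upstream of the lncRNA start (76.9%, 64.8 to 86.5) and for 38 of the 64 downstream of it (59.4%, 46.4 to 71.5). Upstream of an antisense lncRNA start is the downstream direction of the coding gene it overlaps. Summits within 1000 bp of coding starts are also outside the set. These shares are therefore partly set by the class and the rule. The difference between classes was not tested.

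Antisense peaks also lay closest to coding genes apart from divergent ones. Their median distance to a protein-coding TSS was 3197 bp, against 37903 bp for intergenic and 1304 bp for divergent ones. Of the whole set, 63 peaks lay at most 2000 bp from a protein-coding TSS and 81 beyond 50000 bp. The nearest protein-coding gene had an ING5 peak at its own start for 199 of the 341 peaks (58.4%, 52.9 to 63.6). That share was 57.4% for antisense and 60.1% for intergenic lncRNAs. These shares count peaks, so a coding gene nearest to several peaks, such as PPARA, was counted for each of them. The interval treats such peaks as independent. Of all protein-coding genes, each counted singly, 30.9% had an ING5 peak at a start. Shares of peaks and of genes have different units, so they cannot be compared directly, and their difference was not tested.

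In the divergent class, the leaders after ENSG00000256658 were LINC00938, with 17 fragments and 7.99-fold, near the chromatin remodelling gene ARID2, then RAB30-DT, LINC01521 and JARID2-DT, with 12 fragments and 7.01-fold each. GAS1RR was tied with these, at the same pileup and fold. The sense-overlapping class was led by CHASERR, whose name marks it as adjacent to the chromatin remodelling gene CHD2, with 30 fragments, 14.4-fold and the summit 267 bp downstream. ENSG00000291073 followed with 8.63-fold, ENSG00000288656 with 7.55-fold, and ADM-DT and ENSG00000276744 with 7.01-fold each. Summits closest to a start were those of ENSG00000251131, MIR34AHG and LINC01356, each 1 bp from it, with 30, 11 and 9 fragments. At the edge of the lncRNA window, peaks just inside were those of HOXA11-AS, ENSG00000262521 at 966 bp with 9 fragments and LINC00963 at 959 bp with 9. The nearest ones outside lay 1003, 1006 and 1020 bp from a start, with 35, 11 and 9 fragments. At the protein-coding limit, BCDIN3D-AS1 was just inside, at 1003 bp with 10 fragments. The closest peak excluded there lay 994 bp from a coding start and had 13 fragments.

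Few lncRNA genes had such a peak. One of the 341 summits lay within 1000 bp of a start at 351 of 18592 lncRNA genes (1.89%), and any ING5 summit at 1629 (8.76%), since 81.4% of the 1830 summits near an lncRNA start were also near a coding one. Among the 13573 lncRNA genes with every start over 2000 bp from coding starts, 263 had a summit (1.94%, 1.71 to 2.18), against 6126 of 19819 protein-coding genes (30.9%). Shares by class were 2.21% of intergenic, 1.76% of antisense, 1.3% of sense-overlapping and 1.2% of divergent lncRNA genes. An Ensembl identifier was the only name of the gene for 145 of the 341 peaks.

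The peaks belonged to 296 nearest lncRNA genes (1.59% of all lncRNA genes), of which 265 had 1 peak and 31 had more. LINC00963 had 9, with 9 to 20 fragments and 5.21-fold to 9.71-fold enrichment, spread over 13672 bp of chromosome 9. It has 55 distinct annotated starts. The share of genes nearest to a peak rose with the number of annotated starts, from 1.02% of 12485 genes with 1 start (0.849 to 1.21) to 6.46% of 821 genes with 10 or more (4.87 to 8.36). The part of the number of starts in the values per gene was not tested.

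Most peaks stood at CpG-rich starts. This measure was added after the data were seen. A window of 300 bases at the start of the same transcript, read in GRCh37, had a median CpG observed over expected of 0.721 at the 328 starts nearest to a peak (95% interval 0.647 to 0.758). At canonical starts of all lncRNA genes it was 0.290, and at those of protein-coding genes 0.777. A ratio of 0.6 or more was found at 199 of these 328 starts (60.7%, 55.2 to 66.0) and at 23.4% of all canonical lncRNA starts. Class medians were 0.700 for intergenic, 0.720 for antisense, 0.841 for sense-overlapping and 0.858 for divergent lncRNAs.

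Within each range of CpG content, the share of lncRNA starts with a peak was below that of coding starts, with intervals that did not overlap. Of lncRNA genes over 2000 bp from coding starts, 233 of 13573 had a summit within 1000 bp of the canonical start (1.72%), against 27.8% of protein-coding genes. With a ratio from 0.8 to 1.0, the share was 75 of 527 lncRNA starts (14.2%, 11.4 to 17.5) and 2738 of 6685 coding starts (41.0%, 39.8 to 42.1). Below 0.2 it was 11 of 5733 lncRNA starts (0.192%) and 22 of 2347 coding starts (0.937%). Transcription of these genes was not measured here, and its part in the difference was not tested.

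**Figure D3:**
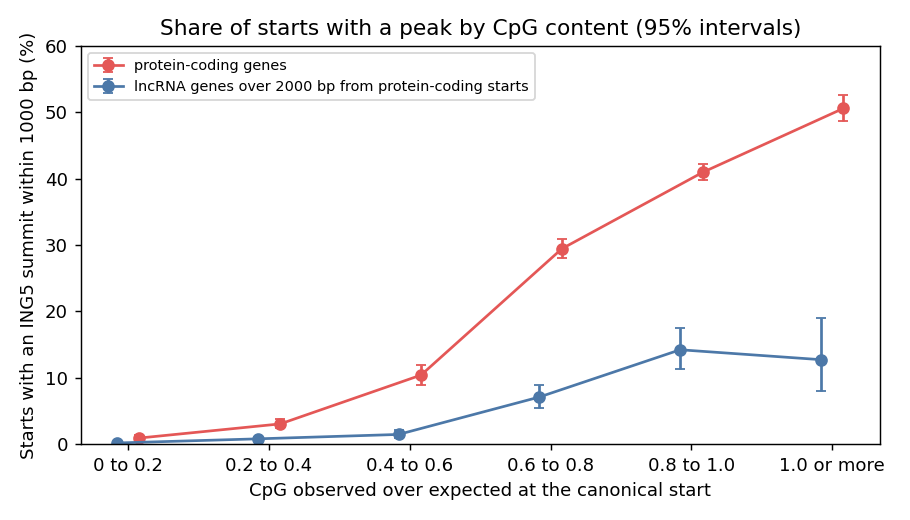
Share of canonical starts with an ING5 summit within 1000 bp (%), by CpG observed over expected of the 300 bases at the start, for lncRNA genes over 2000 bp from coding starts (blue) and protein-coding genes (red), with exact binomial 95% intervals. The coding share rises to 50.6% at a ratio of 1.0 or more, while the lncRNA share reaches 14.2% between 0.8 and 1.0 and is 12.7% above that.

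Most peaks had no other peak of the set close by, and some lay close together. When summits up to 100000 bp apart were joined, 203 of the 341 peaks had no other peak of the set in their block. Another 76 lay in 16 blocks of 3 or more. Peaks outside the set were not counted in these blocks. Counting every ING5 peak, 180 of the 341 (52.8%) had another within 5000 bp and 128 (37.5%) within 1000 bp. The largest block held 10 peaks over 75743 bp around MIRLET7BHG on chromosome 22, at 7 lncRNA genes, with 11 to 131 fragments. LINC00899 there had 44 fragments, ENSG00000289044 had 42 and ENSG00000231010 had 40 over a length of 4529 bp, while ENSG00000273145 at the far end had 11 and 16. Local background in the block ran from 0.853 to 3.13 fragments.

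A block of 8 peaks on chromosome 11 covered NEAT1 and MALAT1, neighbouring genes of abundant nuclear RNAs. NEAT1, the scaffold of paraspeckles, had 24 fragments, 11.1-fold enrichment and 1805 bp at one start and 16 fragments with 5.91-fold at another. MALAT1, a transcript of nuclear speckles, had 3 peaks, with 15, 20 and 13 fragments and 8.63-fold, 11.3-fold and 7.55-fold. Their summits lay 4, 75 and 574 bp downstream of annotated starts, none of them canonical. TALAM1, transcribed antisense to MALAT1, had 8 fragments. In this block no peak exceeded 24 fragments, below the strongest of the let-7 block.

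On chromosome 5 a block of 7 peaks around ANXA2R held 18 to 57 fragments, and all stood over a raised local background of 1.62 to 3.48 fragments. Their enrichment ran from 6.002-fold to 22.2-fold. CASC19 on chromosome 8 had 3 peaks with 70, 21 and 31 fragments over backgrounds of 13.1, 2.18 and 3.21, the first of these the highest background in the set, so their enrichment was 5.02-fold, 6.92-fold and 7.60-fold. The part of the raised background in these pileups was not tested.

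Known lncRNAs were read in lists. Abundant or nuclear lncRNAs had one of the 341 peaks at 5 of 12 genes with a position (41.7%, 15.2 to 72.3): FTX, LINC-PINT, MALAT1, NEAT1 and NORAD. NORAD, which binds Pumilio proteins, had 19 fragments and 10.8-fold, while FTX, of the X-inactivation centre, had 9 fragments and 5.40-fold. Host genes of small nucleolar RNAs (snoRNAs), which guide RNA modification, had one at 12 of 31 (38.7%, 21.9 to 57.8). SNHG29 led with 24 fragments and 13.5-fold, SNHG7 had 3 peaks of 19, 18 and 13 fragments, and SNHG12 and SNHG16 reached 10.4-fold and 10.3-fold. SNHG15, SNHG25, SNHG17, SNHG6, SNHG11, SNHG21, SNHG26 and ZFAS1 had 9 to 17 fragments at their best peak. Another 8 hosts, among them GAS5 and SNHG1, had a peak only where a coding start was within 1000 bp of the summit.

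MicroRNA host genes had one at 11 of 81 (13.6%, 6.98 to 23.001). After MIRLET7BHG came MIR23AHG with 25 fragments and 14.0-fold, MIR31HG with 24 and 12.4-fold and MIR193BHG with 18 and 10.3-fold. MIR34AHG, the host of a microRNA induced by p53, had 2 peaks of 11 fragments each, at -1 and -513 bp from a start. MIR4458HG had 23 fragments but 6.62-fold. MIR99AHG, MIRLET7IHG, MIR762HG, MIR29B2CHG and MIR1915HG had 8 to 14 fragments.

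LncRNAs of the homeobox clusters had one at 5 of 18 (27.8%, 9.69 to 53.5). Besides HOXA11-AS these were HOTTIP, which lies at the distal end of HOXA, with 24 and 14 fragments, and HOTAIR, HOXA-AS3 and HOXB-AS3 with 10, 9 and 9. A further 6 had a peak only near a coding start. The list of liver and liver cancer lncRNAs had 2 of 17 (11.8%, 1.46 to 36.4), PVT1 and HEIH. PVT1, next to MYC, had 3 peaks of 11, 11 and 9 fragments, and HEIH was within reach of a peak whose nearest start was another gene's. No gene of the imprinted list had one (0 of 10, which allows up to 30.8%), nor any ING5 peak at a start. These lists hold genes with more annotated starts than most, with medians of 24.5 for nuclear, 10 for snoRNA hosts, 5 for microRNA hosts, 4 for homeobox, 13 for liver and 7.5 for imprinted lncRNAs, against 1 for lncRNA genes not nearest to any peak. The part of this in their shares was not tested, and nothing is called particular to a list.

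**Figure D4:**
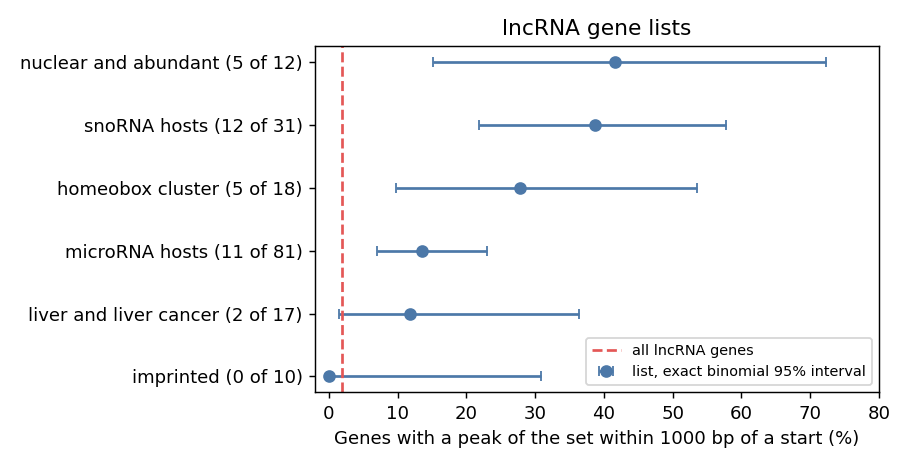
Share of genes in 6 lists of known lncRNAs with one of the 341 peaks within 1000 bp of a start (%, points, with exact binomial 95% intervals), beside the share of all lncRNA genes (dashed line, 1.89%). The points run from 0 of 10 imprinted lncRNAs to 5 of 12 nuclear and abundant ones.

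By naming, genes called antisense (-AS) had one at 44 of 1835 (2.40%, 1.75 to 3.21) and LINC genes at 55 of 2236 (2.46%, 1.86 to 3.19). Genes called divergent (-DT) had one at 8 of 589 (1.36%, 0.588 to 2.66) and genes with only an Ensembl identifier at 169 of 12950 (1.31%). The share over all lncRNA genes, 1.89%, lay within the intervals of the -AS, LINC and -DT genes. A name need not match the position class, since LINC00472 was antisense. None of the 127 genes named as intronic (-IT) had one, which allows up to 2.86%. With peaks near coding starts counted as well, the share was 41.9% for -DT genes and 20.4% for -AS genes, but 3.40% for LINC genes. Over all lncRNA genes it was 8.76%.

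By chromosome, the 341 peaks were most numerous on chromosomes 1, 5 and 7, with 32, 31 and 31. Chromosome 1 also held the most ING5 peaks, 1007, of which the set made up 3.18%, against 3.97% over all chromosomes. The set made up 7.02% of all ING5 peaks on chromosome 22 and 6.81% on chromosome 7. The MIRLET7BHG block held 10 of its 17 peaks on chromosome 22, and a HOXA block 5 of its 31 on chromosome 7. The part of these blocks in the shares was not tested. The lowest shares of the set were 1.37% on chromosome 4 and 0.775% on chromosome 18. A protein-coding start among the RefSeq starts read here lay within 1000 bp of 14 of the 330 summits outside chromosome 8. These included the strongest one of MIRLET7BHG, at 739 bp, that of LINC00899, at 103 bp, and that of ADM-DT, at 262 bp. GENCODE places no coding start within 1000 bp of these 14 summits, so their noncoding label depends on the annotation. Among the RefSeq starts read here, one of an lncRNA lay within 1000 bp of 146 of the 330 summits (44.2%, 38.8 to 49.8). The other summits had none among them. These RefSeq starts cover 11383 lncRNA and 15811 protein-coding genes, fewer than the 18592 and 19819 of GENCODE. Absence from them therefore does not show that RefSeq lacks a start there.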

How the data were processed

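ING5 ChIP-seq was measured in 1 library, with 1 input library as control and 1 peak list. Per the file headers, the authors ran MACS2 2.1.1.20160309 on read pairs and kept peaks with p up to 1e-05. Per the submitters' processing notes, fastp 0.19.6, Bowtie2 and deepTools were also used, in roles not given there. Pileup, as deposited, is coverage in fragments (a signal). Significance was deposited as −log10 p (−log10 q was not used), and fold enrichment, deposited as a ratio, is linear. Peak length in bp was used as deposited.

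GRCh38 starts of 18592 lncRNA and 19819 protein-coding genes came from the original exon positions recorded in the GENCODE 44 annotation lifted to GRCh37; no coordinate was converted. Each peak took its nearest lncRNA start. An lncRNA was antisense or sense-overlapping by overlap of gene bodies with a coding gene, else divergent if a coding start on the other strand lay upstream within 5000 bp, else intergenic. Local background was recovered from pileup and fold, with a pseudocount of 1. Promoter composition was planned from RefSeq windows (GRCh38.p14), but only 29.0% of peaks had one, so that check is void, and GRCh37 windows of the same transcripts were used (100% covered). RefSeq windows of chromosome 8 were not used here.

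Shares have exact binomial 95% intervals and medians order-statistic intervals. Members and lists were chosen with earlier results of these data known. Named genes were the 15 most significant peaks, the 5 leaders of each class, the 3 longest, the 3 nearest a start and the listed genes; others, such as CASC19, LINC00963 and TALAM1, were chosen after their values were seen. Distances were tested on simulated data. Python 3.11.15, pandas 2.3.3 and scipy 1.17.1 were used.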

Additional observations from a re-analysis of the deposited data

How the results depend on the processing

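With 1 library, leaving out a replicate was impossible. No paired analysis was possible because each group has 1 library. Of 178 values under 17 alternative settings, 128 stayed within the limit set for them and 50 did not. The limit was the 95% interval for shares and medians and 1.5 times the reported value for counts.

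Restricting to the more significant peaks (above the median) left 162 peaks at 0.893% of lncRNA genes, with 69.1% of summits downstream and medians of 15 fragments, 8.002-fold and 506.5 bp. The higher-fold peaks gave 161 peaks at 0.914% of genes, 69.6% downstream and medians of 15 fragments, 8.01-fold and 492 bp. Both settings select on significance or fold; the cause of the greater length was not tested.

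Narrowing the lncRNA window lowers the count by construction. At 500 bp the share of peaks was 2.72%, the share of lncRNA genes 1.31% and the median distance 204.5 bp. At 200 bp it was 113 peaks (1.32%), 0.629% of genes, a median distance of 82 bp and a median length of 402 bp. At 3000 bp it was 591 peaks (6.88%), 3.05% of genes and a median distance of 714 bp, with 50.6% downstream, 10.5% divergent and 42.6% intergenic; the cause of the lower downstream share was not tested.

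A protein-coding limit of 3000 bp gave 2.98% of peaks, 1.44% of genes, 26.2% antisense, 0.781% divergent and 69.5% intergenic. At 5000 bp these were 2.71%, 1.32%, 21.9%, 0.429% and 73.8%. Canonical transcripts alone gave 5.01% of peaks, 2.35% of genes, a median distance of 407.5 bp, 53.95% antisense, 6.51% divergent and 34.0% intergenic; fewer coding starts then exclude a peak.

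Settings added after the data were seen were the lowest local background only (209 peaks, 1.17% of genes), 1 peak per gene (3.45% of peaks), RefSeq coding starts excluded as well and CpG content from GRCh37. Of the 15 most significant peaks, 5 were kept at the lowest local background, 7 at either protein-coding limit, 8 with the 200 bp window and 10 with the 500 bp window. The effect of depth was not tested.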
